A study of Mus musculus with 24 samples.

Results

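Hedgehog receptors and Gli factors were followed in hippocampal cells of adult C57BL/6 mice after deletion of the Notch receptor gene Notch2. The group consisted of 9 genes chosen by symbol: the receptor Ptch1, the transducer Smo, the co-receptors Boc, Cdon and Gas1, the cytoplasmic inhibitor Sufu, and the transcription factors Gli1, Gli2 and Gli3. All 9 were among the 48321 gene symbols counted. The knockout group (CKO) was Notch2 flox/flox and the wild-type group (WT) was Notch2 wt/wt. Both groups carried Hes5::CreERT2, an inducible Cre expressed from Hes5, which is active in neural stem cells, and the reporter Rosa26R-CAG::GFP that Cre switches on. Both were given tamoxifen for 5 days. GFP-positive cells were sorted 1 day after tamoxifen ended. Each sample was made from cells of several pooled animals, and there were 3 pools of each genotype with 2 libraries per pool.

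Hedgehog is a secreted signal. In its absence Ptch1 keeps Smo inactive, and binding of the ligand to Ptch1, aided by Boc, Cdon or Gas1, releases Smo, which then acts at the primary cilium. Active Smo frees the Gli proteins from Sufu. Gli2 is mainly an activator, Gli3 is largely processed to a repressor when the pathway is off, and Gli1 is an activator whose own gene, like Ptch1, is a target of the pathway. In the adult hippocampus, Sonic hedgehog is known as a factor that maintains neural stem cells and their division.

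Each pool had between 40366579 and 53984963 reads in genes. Levels are given in counts-per-million units (CPM), in which a single read was worth 0.0175 to 0.0265. Notch2 stood at 65.3, 116 and 121 CPM in CKO pools 1 to 3, against 99.3, 146 and 303 CPM in WT pools 1 to 3. The genotypes overlapped, and the log2 fold change (CKO over WT, as in all that follows) was -0.86 (SE 0.45, edgeR adjusted p = 0.790). No source used here names the floxed exons, and reads from exons that remain after recombination count towards the gene, so this level checks the deletion only in part. Of the stem cell markers, Hes5 stood at 361 to 400 CPM in CKO pools and 234 to 495 CPM in WT pools, whereas Nes stood at 3.12 to 5.47 CPM in CKO pools and 0.185 to 6.37 CPM in WT pools. Oligodendrocyte markers summed to 3065 to 5345 CPM in CKO pools and 2303 to 6141 CPM in WT pools, so the sorted cells were not stem cells alone.

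No gene of the group passed the test between genotypes. Gli3 was the member with the smallest p, with every CKO pool above the highest WT pool, and Smo had every CKO pool below the lowest WT pool. The pools of the genotypes overlapped for the remaining 7. Of the 9 genes, 0 passed an adjusted p of 0.05 in edgeR's quasi-likelihood test, the same as over all 21477 genes tested, of which 0 (0%) passed. Only Gli3 (11.1% of the group) had an unadjusted p under 0.05, which 1269 genes (5.91%) had over all genes. The 2 genes without overlap were 22.2% of the group, against 3402 genes (15.8%) over all. Log2 fold changes were above 0 for 7 of 9 members (77.8%) and for 47.2% of all genes, with a median of 0.37 for the group and -0.06 for all genes. DESeq2 called 124 genes, none of them among the 9. The pools hold a mixture of cells, and fewer cells of one type cannot be told apart from less RNA per cell.

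**Figure D1:**
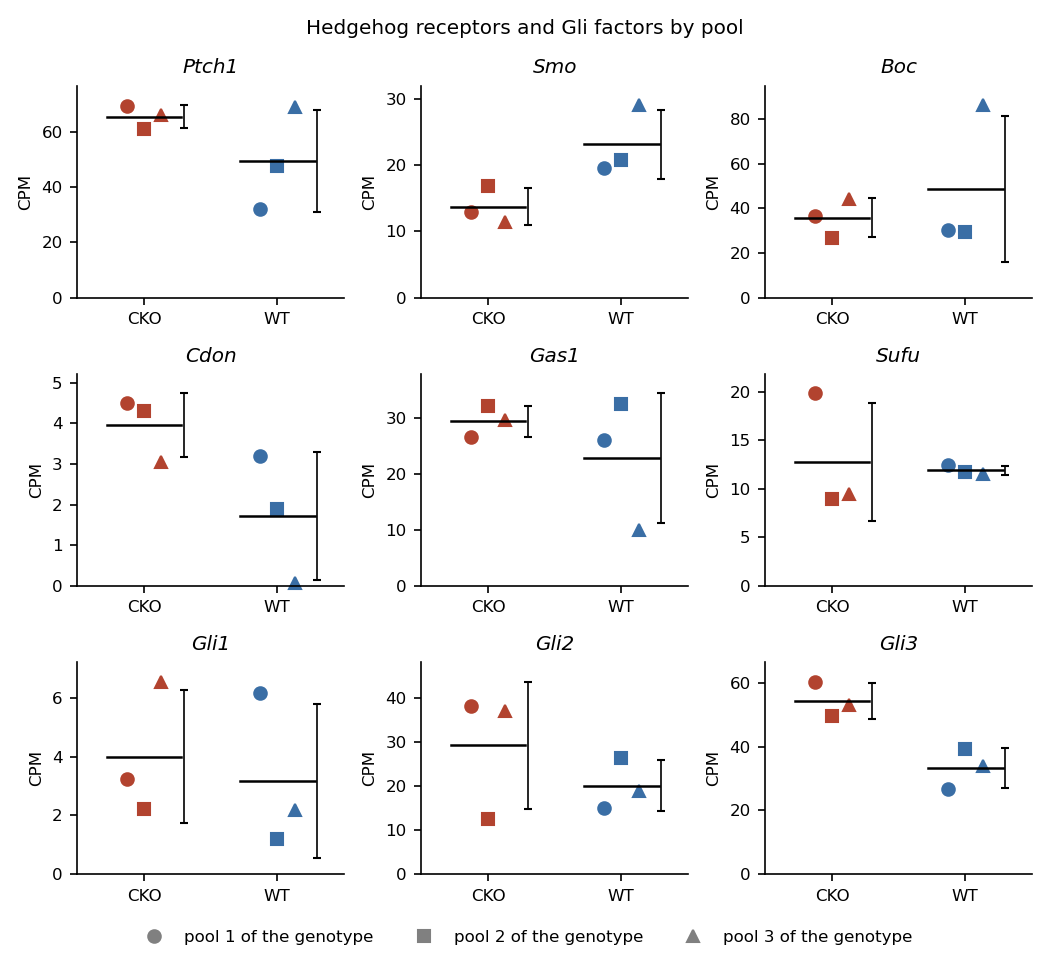
Level in CPM (vertical axis, from 0) of each gene in the 3 CKO pools (red, left) and the 3 WT pools (blue, right). Each point is 1 pool, horizontal lines are means and vertical bars are ± SD. Gli3 has all CKO pools above all WT pools (49.7 to 60.5 against 26.8 to 39.2 CPM) and Smo all CKO pools below all WT pools (11.5 to 16.8 against 19.5 to 29.1 CPM).

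Ptch1, the Hedgehog receptor (chromosome 13, 63508328 to 63573598, minus strand, GRCm38), stood at 69.5, 61.1 and 66.1 CPM in CKO pools 1 to 3, against 32.0, 47.6 and 69.1 CPM in WT pools 1 to 3. The CKO pools lay close together, and WT pool 3 lay within their range while the other WT pools lay below it. Means were 65.5 ± 4.21 CPM in CKO and 49.6 ± 18.6 CPM in WT pools (SD, n = 3 each). The difference did not pass, with a log2 fold change of 0.40, an SE of 0.32 and an edgeR adjusted p of 0.814 (unadjusted p = 0.253). Which WT pools were counted decided its size: it was 0.72 without WT pool 3 and 0.18 without WT pool 1. Library 1 of the pools alone gave 0.69 and library 2 alone 0.23. The closeness of the CKO pools was one of pool sums. In libraries 1 and 2, Ptch1 had 37.2 and 96.6 CPM in CKO pool 1, 26.0 and 91.9 CPM in CKO pool 2, and 88.1 and 46.3 CPM in CKO pool 3. The libraries of WT pools differed too, by 1.49-fold to 2.53-fold.

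Smo, the membrane protein that passes the signal on (chromosome 6, 29735503 to 29761365, plus strand), stood at 13.0, 16.8 and 11.5 CPM in CKO pools 1 to 3, against 19.5, 20.8 and 29.1 CPM in WT pools 1 to 3. All CKO pools lay below all WT pools, with a gap of under 3 CPM between the nearest of them. Means were 13.8 ± 2.75 CPM in CKO and 23.1 ± 5.17 CPM in WT pools (SD, n = 3 each). The log2 fold change was -0.75 (SE 0.38), with an edgeR adjusted p of 0.790 and an unadjusted p of 0.0851, so the difference did not pass. It stayed between -0.92 and -0.56 when single pools were left out. The libraries of a pool gave unequal values: the difference was -0.25 in library 1 and -1.04 in library 2, and in each library taken alone the genotypes overlapped. Most of this came from WT pool 3, where Smo had 5.26 CPM (80 reads) in library 1 and 50.5 CPM (1017 reads) in library 2. In the other 5 pools the libraries of a pool differed by at most 1.76-fold.

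The bases just before the Smo start are shown because Smo and Gli3 were the 2 genes whose pools did not overlap. They were read from RefSeq on GRCm38.p6, 5′ to 3′ on the gene's strand (chr6:29735247-29735496, 250 bases). Capitals mark matches to either of 2 motifs, and there are none in this window.
Smo: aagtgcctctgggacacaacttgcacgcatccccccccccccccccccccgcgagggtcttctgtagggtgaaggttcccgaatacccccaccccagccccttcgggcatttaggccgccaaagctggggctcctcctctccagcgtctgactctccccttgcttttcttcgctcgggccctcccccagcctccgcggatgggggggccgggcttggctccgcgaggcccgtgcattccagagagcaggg

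The motifs searched, on both strands, were ACCACCC, the core bound by Gli proteins, which reads GGGTGGT on the other strand, and GTGGGAA, the site of Rbpj, the DNA-binding partner of active Notch, which reads TTCCCAC on the other strand. In the 250 bases before the start, the Gli core was present in 1289 of 32851 windows in the mouse table (3.92%) and the Rbpj site in 1779 (5.42%). Of the 9 genes, 7 had a window there. Gli2 alone held the Gli core, and 0 of 7 held the Rbpj site. Hes5, a known direct target of Notch and the gene that drove Cre here, is given for comparison. It held the Rbpj site at 2 places, with first bases 226 and 83 bases before the start (chr4:154960677-154960866, plus strand).
Hes5: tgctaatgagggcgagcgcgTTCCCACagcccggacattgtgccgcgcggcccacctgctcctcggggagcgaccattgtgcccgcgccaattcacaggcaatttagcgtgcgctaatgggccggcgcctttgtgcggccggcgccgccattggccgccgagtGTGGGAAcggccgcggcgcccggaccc
A match is a match of letters and not a measured binding site, and a window without one says nothing of sites elsewhere.

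Among the co-receptors, Boc, an immunoglobulin-family surface protein that binds the ligand (chromosome 16, 44485049 to 44558897, minus strand), had 36.5, 26.7 and 44.2 CPM in CKO pools 1 to 3, against 30.4, 29.4 and 86.2 CPM in WT pools 1 to 3. WT pool 3 stood alone at the top, and the other 2 WT pools lay inside the CKO range. Means were 35.8 ± 8.76 CPM in CKO and 48.7 ± 32.5 CPM in WT pools (SD, n = 3 each). The log2 fold change was -0.44, with an edgeR adjusted p of 0.845. It was smaller than its SE of 0.49 and turned to 0.26 without WT pool 3.

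Cdon, the close relative of Boc (chromosome 9, 35421128 to 35507652, plus strand), was the least abundant of the 9 per length of exon. It had 4.49, 4.31 and 3.05 CPM in CKO pools 1 to 3, against 3.20, 1.89 and 0.0795 CPM in WT pools 1 to 3. The value in WT pool 3 was 3 reads, where the other pools had 80 to 256, and WT pool 1 lay above CKO pool 3. Means were 3.95 ± 0.785 CPM in CKO and 1.72 ± 1.57 CPM in WT pools (SD, n = 3 each). Its log2 fold change of 1.19 was the farthest from 0 in the group, with an SE of 1.12 nearly as large (edgeR adjusted p = 0.831, unadjusted p = 0.321). The difference was 0.62 without WT pool 3 and 2.02 without WT pool 1. Cdon had a higher level in library 2 than in library 1 in 6 of 6 pools, by 17.9-fold in CKO pool 3 (7 and 148 reads).

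Gas1, a membrane-anchored co-receptor (chromosome 13, 60174405 to 60177365, minus strand), had 26.5, 32.1 and 29.6 CPM in CKO pools 1 to 3, against 26.0, 32.4 and 9.88 CPM in WT pools 1 to 3. Apart from WT pool 3, which was the lowest, the pools of both genotypes lay in one narrow range. Means were 29.4 ± 2.79 CPM in CKO and 22.8 ± 11.6 CPM in WT pools (SD, n = 3 each), which made a log2 fold change of 0.37 with an SE of 0.47 (edgeR adjusted p = 0.863). Without WT pool 3 it was 0.0053. An exon of the antisense RNA gene Gm48488 covers 19.89% of the exon bases of Gas1, and the libraries do not mark strand, so its reads cannot be told from those of Gas1.

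WT pool 3 held the highest level of Boc and Smo and the lowest of Cdon and Gas1. Over all genes tested it was the lowest pool for 28.8% and the highest for 24.5%, against 22.2% for each in the group. It also had the fewest reads in genes and the largest share of unaligned reads (21.7%). The labels carry a tag in K for each pool, which they do not explain. It was 20, 12 and 2 in WT pools 1 to 3 and 19, 4 and 9 in CKO pools 1 to 3. Whether the tag bears on these levels was not tested. CKO pool 1 was the highest pool for 5 of the 9 genes (55.6%), namely Ptch1, Cdon, Sufu, Gli2 and Gli3, and for 11.2% of all genes.

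Sufu, which binds Gli proteins and holds them back (chromosome 19, 46396896 to 46488804, plus strand), had 19.8, 8.99 and 9.46 CPM in CKO pools 1 to 3, against 12.4, 11.8 and 11.6 CPM in WT pools 1 to 3. CKO pool 1 was above all WT pools and CKO pools 2 and 3 were below them. Means were 12.8 ± 6.12 CPM in CKO and 11.9 ± 0.456 CPM in WT pools (SD, n = 3 each). The log2 fold change was 0.10 with an SE of 0.47 (edgeR adjusted p = 0.965). Without CKO pool 1 it was -0.36. The agreement among WT pools was one of pool sums: in WT pool 3 Sufu had 1.18 CPM in library 1 and 20.7 CPM in library 2.

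Gli1, the activator whose gene is a widely used readout of Hedgehog signalling (chromosome 10, 127329882 to 127341974, minus strand), was a low-count gene here. It had 3.23, 2.22 and 6.57 CPM in CKO pools 1 to 3 (184, 99 and 334 reads), against 6.17, 1.18 and 2.20 CPM in WT pools 1 to 3 (312, 50 and 83 reads). Each genotype had 1 pool above 6 CPM and 2 below 4 CPM. Means were 4.01 ± 2.28 CPM in CKO and 3.18 ± 2.64 CPM in WT pools (SD, n = 3 each), and the log2 fold change of 0.33 had an SE of 0.83 (edgeR adjusted p = 0.931). The libraries gave opposite signs, -1.58 in library 1 and 1.34 in library 2, each with overlapping pools. In WT pool 3, library 1 held 12.4 times the level of library 2 (75 and 8 reads), while in CKO pool 3 library 2 held 8.57 times the level of library 1 (304 and 30 reads). The sign also turned without CKO pool 3 (-0.16), and the value was 1.26 without WT pool 1. Gli1 shares 265 exon bases (5.31%) with the antisense gene Gm47200, which is not analysed here. It shares 62 exon bases (1.24%) with Arhgap9 on the other strand, which had 36, 6 and 271 reads in CKO pools 1 to 3 against 12, 3 and 0 reads in WT pools 1 to 3. In CKO pool 3, where Gli1 was highest, Arhgap9 was highest too, and the share of reads from the common bases was not tested.

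Gli2, the main activator (chromosome 1, 118834132 to 119053619, minus strand), had 38.1, 12.6 and 37.1 CPM in CKO pools 1 to 3, against 15.0, 26.4 and 18.9 CPM in WT pools 1 to 3. CKO pools 1 and 3 were above all WT pools, and CKO pool 2 was the lowest of all 6. Means were 29.3 ± 14.4 CPM in CKO and 20.1 ± 5.76 CPM in WT pools (SD, n = 3 each). The log2 fold change was 0.54 (SE 0.50, edgeR adjusted p = 0.827), 0.91 without CKO pool 2 and 0.32 without CKO pool 1. Library 1 gave 0.85 and library 2 gave 0.40. Its window was the one with the Gli core, on the strand opposite to the gene, with its first base 205 bases before the start. It is printed with the bases around it (chr1:119053798-119053844, minus strand, the motif in capitals).
Gli2: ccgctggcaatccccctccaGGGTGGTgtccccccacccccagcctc

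Gli3, the factor that is mostly a repressor when the pathway is off (chromosome 13, 15463235 to 15730026, plus strand), had 60.5, 49.7 and 53.0 CPM in CKO pools 1 to 3 (3450, 2217 and 2696 reads), against 26.8, 39.2 and 33.9 CPM in WT pools 1 to 3 (1356, 1663 and 1280 reads). The lowest CKO pool lay above the highest WT pool. Means were 54.4 ± 5.53 CPM in CKO and 33.3 ± 6.23 CPM in WT pools (SD, n = 3 each), a 1.63-fold difference. The log2 fold change of 0.71 (SE 0.27) had an unadjusted p of 0.0348, and with an edgeR adjusted p of 0.790 it missed the threshold. Single pools left out gave 0.59 to 0.89. The unadjusted p was then 0.119, 0.0623 and 0.0778 without CKO pools 1, 2 and 3, and 0.0505, 0.0293 and 0.0421 without WT pools 1, 2 and 3 (edgeR), and no adjusted p passed.

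The libraries showed it unequally. In library 1, Gli3 stood at 46.6, 39.4 and 42.0 CPM in CKO pools 1 to 3, against 31.0, 27.3 and 44.6 CPM in WT pools 1 to 3, with WT pool 3 above 2 of the CKO pools. In library 2, it stood at 71.2, 59.5 and 61.4 CPM in CKO pools, against 21.3, 53.0 and 29.9 CPM in WT pools, with no overlap. The log2 fold changes were 0.34 (SE 0.47) and 0.87 (SE 0.39). The antisense gene Gm6556 shares 188 exon bases (1.96%) with Gli3 and had 20, 127 and 82 reads in CKO pools against 3, 4 and 7 in WT pools. Gm6556 thus had more reads in each CKO pool than in any of the WT pools, but few beside those of Gli3, and reads in the shared bases cannot be assigned without strand.

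The 5 neuroblast markers, which do not include Gli3, summed to 199 to 250 CPM in CKO and 105 to 186 CPM in WT pools, without overlap. This was the only list of cell type markers whose sums did not overlap between the genotypes. Of the lists of further pathway genes given below, those of ligands and of the cilium did not overlap in their sums either. The ligand list had 19.2 to 31.7 CPM in CKO against 6.33 to 17.7 CPM in WT pools, and the cilium list 358 to 391 against 253 to 355 CPM. How often sums of lists did not overlap was not counted over all genes. The neuroblast sum was led by Sox11, a transcription factor of immature neurons picked out after its values were seen. Sox11 had 103, 150 and 160 CPM in CKO pools 1 to 3 against 73.2, 48.7 and 88.6 CPM in WT pools 1 to 3 (log2 fold change 0.97, SE 0.31, edgeR adjusted p = 0.790, unadjusted p = 0.0152). Without Sox11, the sums of the other neuroblast markers overlapped between the genotypes. Neurod1, also picked out afterwards, had a log2 fold change of the other sign, -0.65 (SE 0.48), with means of 28.2 CPM in CKO and 44.2 CPM in WT pools. Of the 5 genes, 4 had log2 fold changes above 0 and 0 passed after adjustment in edgeR. The pools of 4 overlapped, and those of Sox11 did not, a share near the 15.8% of all genes without overlap. None was at 0 in any pool, and their part in the level of Gli3 was not tested. Radial glia-like stem cell markers summed to 8729 to 12731 CPM in CKO and 5604 to 10158 CPM in WT pools, with overlap. Most of this was Slc1a3, at 6902 to 10122 CPM in CKO and 3838 to 8289 CPM in WT pools, so the sum says little of the others. Of the 10 markers, 6 had log2 fold changes above 0 and 4 below. Only Hopx had no overlap, with its CKO pools below its WT pools. Astrocyte markers, mostly Aldoc, summed to 11947 to 18930 CPM in CKO and 14003 to 18482 CPM in WT pools, also with overlap. Sums of the remaining lists overlapped too (CKO against WT pools). Oligodendrocyte precursor markers had 658 to 2064 against 1123 to 1733 CPM, and microglia markers 89.2 to 332 against 113 to 188 CPM. Endothelial and mural markers had 57.8 to 105 against 36.1 to 131 CPM, and neuron markers 258 to 364 against 282 to 725 CPM.

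The RefSeq window before the Gli3 start, the counterpart of that of Smo, lies inside the span of the gene as annotated by GENCODE but outside its exons, since longer transcripts start further upstream (chr13:15463473-15463722, plus strand, 250 bases). It too held neither motif.
Gli3: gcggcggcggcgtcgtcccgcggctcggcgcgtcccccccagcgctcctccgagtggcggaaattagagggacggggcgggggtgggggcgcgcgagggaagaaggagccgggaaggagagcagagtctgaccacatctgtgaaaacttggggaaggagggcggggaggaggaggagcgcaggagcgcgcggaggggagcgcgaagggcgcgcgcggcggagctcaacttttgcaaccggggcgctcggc

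Levels were compared between genes per kilobase of exon, because longer genes collect more reads. Exon length was that of all annotated exons of a gene joined, over all its transcripts (14185 bases for Ptch1). The annotation used for counting is not given, and how far the order depends on these lengths was not tested. Averaged over the 6 pools, the order was Boc (9.48 CPM per kb), Gas1 (8.80), Gli3 (4.58), Ptch1 (4.06), Gli2 (3.59), Smo (3.28), Sufu (1.60), Gli1 (0.720) and Cdon (0.368). Several neighbours did not differ beyond their spread. Boc was above Gas1 in 1 of 6 pools, its mean being carried by 19.4 CPM per kb in WT pool 3. Ptch1 was above Gli2 in 3 of 6 pools and Gli2 above Smo in 3 of 6. Gas1 was above Gli3, Gli3 above Ptch1, Smo above Sufu and Sufu above Gli1 in 5 of 6 pools each, and Gli1 above Cdon in 4 of 6. In these means, Ptch1, Smo, Boc, Gas1, Gli2 and Gli3 stood several times above the target gene Gli1 per length. In single pools the gap could be smaller, as in CKO pool 3, where Smo had 2.04 and Gli1 1.32 CPM per kb.

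Between genotypes, Smo shifted most in the order of the means: it ranked 6 of 9 in CKO pools, at 2.45 ± 0.490 CPM per kb, and 3 in WT pools, at 4.12 ± 0.919 CPM per kb (SD, n = 3 each). Gli3 ranked 3 in CKO pools, at 5.68 ± 0.577 CPM per kb, and 5 in WT pools, at 3.48 ± 0.650 CPM per kb. The ranks of the other 7 genes differed by 1 at most. Ptch1, which ranked 4 in WT pools, stood there at 3.49 ± 1.31 CPM per kb, so WT ranks 3 to 5 lay within the spread of the pools. The shifts in rank restate the levels of Smo and Gli3 and were not tested.

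**Figure D2:**
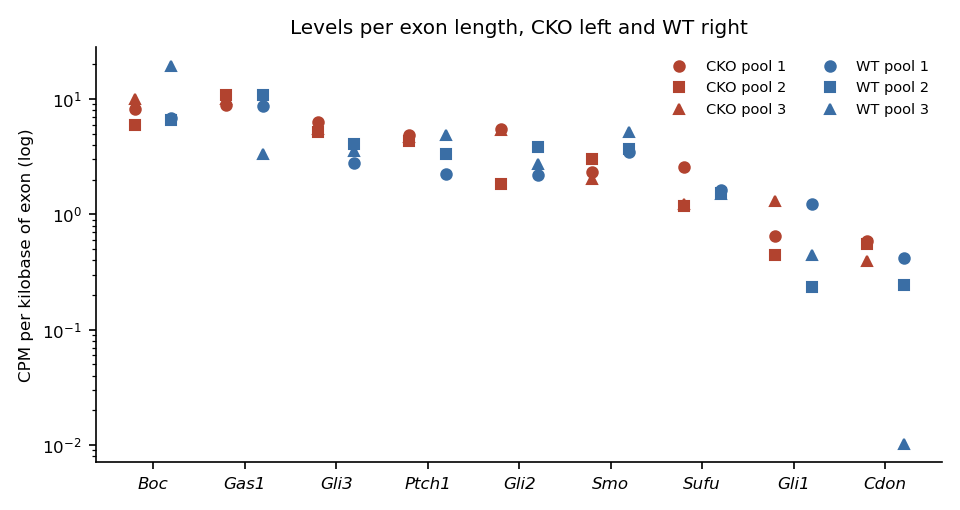
Level per kilobase of exon (vertical axis, log scale, CPM per kb) of the 9 genes in order of their mean, with CKO pools left (red) and WT pools right (blue) of each tick. Point shapes mark pools 1 to 3. Boc and Gas1 lead, Gli1 and Cdon are lowest, and Cdon in WT pool 3 stands at 0.0103 CPM per kb.

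The 2 libraries of a pool often disagreed on these genes. Over the 53 pairs in which both libraries had reads, the higher library exceeded the lower by a median of 1.57-fold, and by more than 3-fold in 10 pairs. Genes of the whole table with a mean of at least 10 CPM had a median of 1.59-fold, a similar figure. The sets are unlike, since the pairs of the group include Gli1 and Cdon, whose means were under 10 CPM. The share of pairs above 3-fold was not counted over all genes. Large gaps affected Cdon, Sufu, Gli1, Smo, Boc, Gli2 and Ptch1 in at least 1 pool, while the libraries of Gli3 and Gas1 agreed within 1.94-fold and 1.69-fold in every pool.

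**Figure D3:**
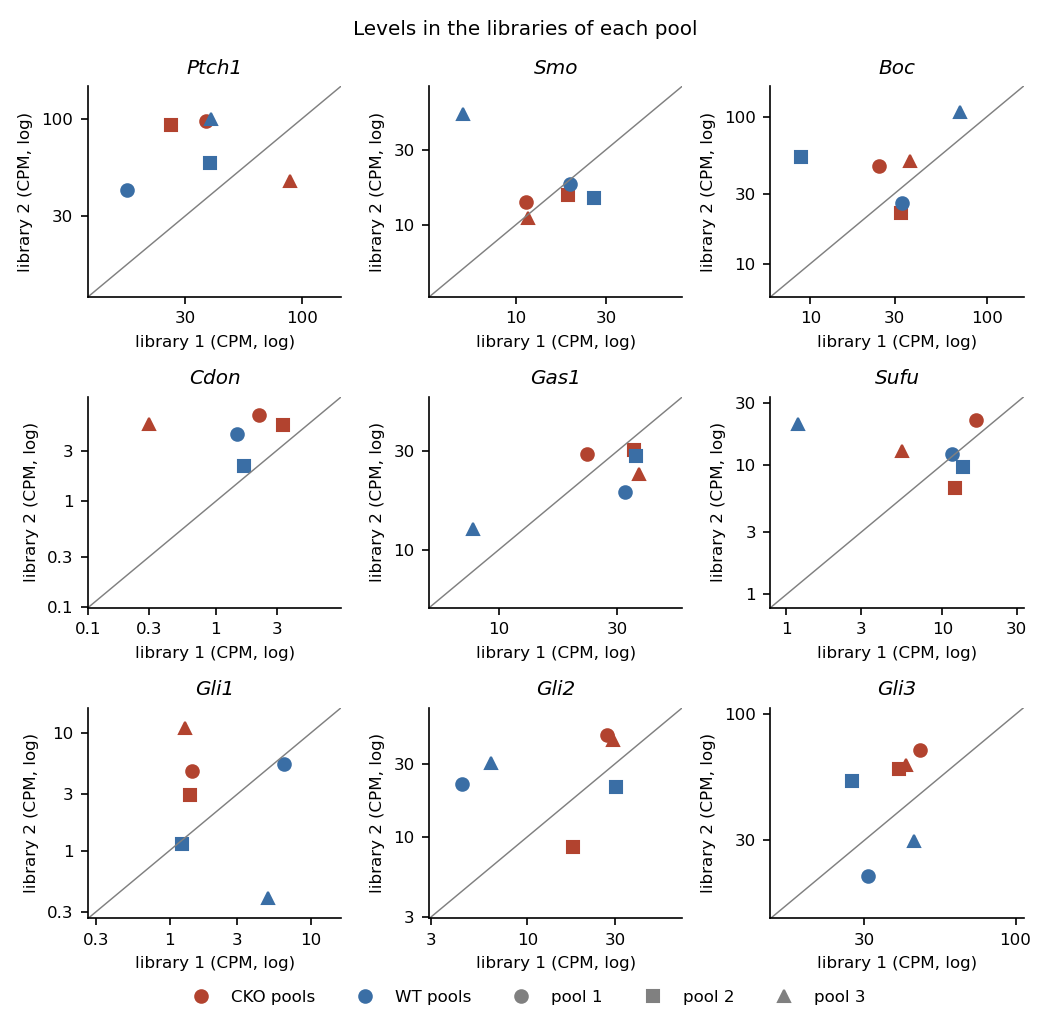
Level in library 1 (horizontal) and library 2 (vertical) of each pool, in CPM on log axes, with the line of equality, for the 9 genes. Red are CKO and blue WT pools, and shapes mark pools 1 to 3. WT pool 3 is far from the line for Smo, Sufu and Gli1. Cdon in WT pool 3 had 0 reads in library 1 and is not drawn.

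Further genes of the pathway were looked at in 4 lists. Of 48 symbols listed, 47 were in the tables and 43 were tested, and 0 passed after adjustment in edgeR. Unadjusted p under 0.05 was reached by 2 (4.65%), both with log2 fold changes above 0, a share below that of all genes. Pools did not overlap for 6 genes (14%), each with its CKO pools above its WT pools, near the share of all genes without overlap. Log2 fold changes were above 0 for 29 (67.4%), with a median of 0.26, against 47.2% and -0.06 over all genes. WT pool 3 was the lowest pool for 13 of the 43 and the highest for 11, where over all genes it was the lowest for 28.8% and the highest for 24.5%.

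Of the 8 genes for ligands and their release, 5 were tested, 0 passed after adjustment and all 5 had log2 fold changes above 0, with a median of 1.30. Shh, the Sonic hedgehog ligand, was near the limit of detection with 32, 9 and 38 reads in CKO pools 1 to 3, against 2, 5 and 5 reads in WT pools 1 to 3. These are 0.561, 0.202 and 0.748 CPM in CKO and 0.0396, 0.118 and 0.132 CPM in WT pools, without overlap. The log2 fold change of 2.36 (SE 0.95) did not pass (edgeR adjusted p = 0.790, unadjusted p = 0.0407). The other ligand genes had too few reads to be tested. Ihh had 48, 9 and 0 reads in CKO pools 1 to 3 against 0 in all WT pools. Dhh had 76, 50 and 1 reads in CKO pools 1 to 3 against 4, 2 and 3 reads in WT pools 1 to 3. Scube3, of a family that helps to release the ligand, was picked out after its values were seen and stood at 1.44, 2.29 and 0.807 CPM in CKO against 0.198, 0.802 and 0.530 CPM in WT pools (log2 fold change 1.56, SE 0.90, edgeR adjusted p = 0.794).

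In the list of the cilium and its membrane proteins, 13 of 14 genes were tested, 0 passed after adjustment, 10 had log2 fold changes above 0 and the median was 0.52. Dync2h1, the motor that carries cargo back from the tip of the cilium, stood at 60.2, 91.2 and 83.1 CPM in CKO pools 1 to 3, against 29.5, 59.5 and 19.1 CPM in WT pools 1 to 3. The lowest CKO pool barely exceeded the highest WT pool. Its log2 fold change was 1.12 (SE 0.45, edgeR adjusted p = 0.790, unadjusted p = 0.0401). Gpr161, a receptor that restrains the pathway at the cilium and was picked out after its values were seen, also had no overlap. It stood at 1.96 to 2.62 CPM in CKO and 0.344 to 1.65 CPM in WT pools. In WT pool 3 it had 13 reads, where the other pools had 69 to 133.

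The list of kinases, adaptors and Gli degradation held 17 symbols, among them both names of 1 kinase gene, Grk2 and Adrbk1, counted as Adrbk1. Of these symbols, 16 were tested, 0 passed after adjustment, 10 had log2 fold changes above 0 and the median was 0.30. The smallest p in this list was that of Btrc, the ubiquitin ligase subunit that recognises phosphorylated Gli proteins. Btrc had 65.1, 74.7 and 60.9 CPM in CKO pools 1 to 3, against 35.1, 47.8 and 54.6 CPM in WT pools 1 to 3, without overlap (log2 fold change 0.54, SE 0.27, edgeR adjusted p = 0.790, unadjusted p = 0.0802).

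The 9 other target genes were all tested and 0 passed after adjustment. They had no common direction, with 4 log2 fold changes above 0, 5 below 0 and a median of -0.01. Mycn, a growth-promoting transcription factor, had the smallest p, with 62.1, 28.6 and 31.3 CPM in CKO pools 1 to 3 against 24.7, 19.8 and 24.8 CPM in WT pools 1 to 3 (log2 fold change 0.82, SE 0.39, edgeR adjusted p = 0.790, unadjusted p = 0.0734). Its pools did not overlap, and CKO pool 1 alone had a level well above the rest. Hhip, a target that captures the ligand, had 5.79, 16.1 and 17.0 CPM in CKO against 7.48, 11.2 and 20.6 CPM in WT pools (log2 fold change -0.01, SE 0.60). Of the direct targets, Gli1, Ptch1 and Hhip had overlapping pools in these pool sums.

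Ptch1, Gli3 and Boc had the highest mean CPM of the 9, not scaled to length. Across the 12 libraries, the genes whose log2(CPM + 0.5) was most like that of Ptch1, among 4787 of similar or higher abundance, were Clptm1 and Dync1li2 (Pearson r = 0.88 each) and Ahctf1 (r = 0.86). Those most like Gli3 were Yipf4 (r = 0.91), Ankle2 (r = 0.90) and Kmt2c (r = 0.88). Those most like Boc were Smchd1 (r = 0.89), Mras (r = 0.87) and Dnm2 (r = 0.86). None of these genes was on the lists of the pathway. The 2 libraries of a pool are of the same pool of animals, and whether they came from 1 cDNA is not stated. These are therefore descriptions over libraries that are not independent. Each r was also among the highest of 4787, and how high r runs by such a choice alone was not tested.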

How the data were processed

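Raw read counts per gene were deposited by the authors, 1 table for each of 24 sequencing runs, with 48321 gene symbols and 5 summary lines left out of library sizes and tests. Bowtie2, HTSeq and the mouse build GRCm38 are named in the submitters' processing notes. Versions, annotation and counting settings are not given in the sources used here. Smart-Seq2 cDNA and Nextera XT libraries, named in the labels' protocols, do not mark strand. Reads outside genes made up 16.0% to 35.3% of a pool, ambiguous reads 2.51% to 3.43% and unaligned reads 11.2% to 21.7%.

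Per the labels, the runs came from 6 pools with 2 libraries each on 2 lanes. Between lanes of 1 library the reads agreed within sampling noise (chi-square per degree of freedom 0.986 to 1.01), while libraries of 1 pool did not (70.7 to 351). The 4 runs of a pool were summed, and the pool was the replicate (n = 3 per genotype). That pools shared no animal is not stated, so p-values reflect only the variation among these pools.

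The genotype comparison used edgeR 4.0.16 and R 4.3.3 (filterByExpr by genotype, TMM, robust quasi-likelihood F test, Benjamini-Hochberg over 21477 genes, threshold 0.05). CPM is reads per TMM-adjusted library size. The step was tested on simulated data, in which recovery of changed genes was required only at a dispersion far below that of these pools. Alternatives used DESeq2 1.42.0, limma-voom (limma 3.58.1), other scalings, no filter, single libraries and each pool left out. Reads carry no molecular identifiers, so depth covers counting error only, and the common biological coefficient of variation between pools was 0.725. Positions and exon lengths are from GENCODE M21.

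All 9 members and Notch2 are named. Of each further list of the pathway, the genes with an unadjusted p under 0.05 are named, or else the one with the smallest p, and also Shh, Ihh, Dhh and Hhip. A further gene that the rule names is not reported here. For likeness, the 3 genes with the highest r are named for each of the 3 members with the highest mean CPM, among genes whose mean log2 CPM was 5 or more and no clone-like symbol. Members, lists and rules were chosen with earlier results of these data known.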

Additional observations from a re-analysis of the deposited data

How the results depend on the processing

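Over 14 alternatives, 6 of the 9 genes kept the sign of their log2 fold change, and the lowest adjusted p of any member was 0.368 (Gli3, DESeq2). Signs turned for 3 genes. Sufu stood at -0.0021 with pool number as a replicate block, -0.043 in library 2 alone and -0.36 without CKO pool 1. Gli1 stood at -1.58 in library 1 alone and -0.16 without CKO pool 3, and Boc at 0.26 without WT pool 3. With single pools left out, Sufu ranged from -0.36 to 0.32, Gli1 from -0.16 to 1.26 and Boc from -0.68 to 0.26. No alternative called a member, and DESeq2 called 124 genes in all (80 higher and 44 lower in CKO pools, 2003 at an unadjusted p under 0.05), against 0 in edgeR. The members with an unadjusted p under 0.05, 1 in edgeR, numbered 2 in DESeq2 (Gli3 and Smo), 0 with the replicate block, 0 in library 1 alone, 0 in library 2 alone, and 0 to 2 as pools were left out (2 without WT pool 3, Gli3 and Ptch1). Gli3 had such a p in 7 of 14 alternatives. The pool numbers did not pair the pools (correlations of deviations 0.0559, 0.0218 and -0.028 for same numbers), and the block called 0 genes. The median log2 fold change over all genes shifted by 0.10 without TMM, 0.13 without the filter, 0.12 in limma-voom and 0.11 with the block, and that of the members, 0.37 in edgeR, stood at 0.26 to 0.48 over all alternatives. The causes were not tested. Precision is limited by 3 pools per genotype and the gaps between libraries. For Cdon, Gli1 and the ligand genes, counts limit it as well.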

Other observations

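Ratios of reads within a pool do not depend on how libraries are scaled. They were chosen after the levels of Gli3, Ptch1 and Smo had been seen, and are given as values with no test. Gli3 had 4.67, 2.96 and 4.62 reads for each Smo read in CKO pools 1 to 3, against 1.37, 1.89 and 1.17 in WT pools 1 to 3. Ptch1 had 5.36, 3.63 and 5.75 reads for each Smo read in CKO pools, against 1.64, 2.29 and 2.38 in WT pools. Neither ratio overlapped between the genotypes in these sums. For Gli3 to Smo the levels had fixed this, since neither gene overlapped and their differences had opposite signs. The ratio of Ptch1 to Smo has the same denominator, so neither ratio is a finding apart from the levels. Both ratios overlapped in library 1 alone, where WT pool 3 had 80 Smo reads. There Gli3 had 4.09, 2.10 and 3.59 reads for each Smo read in CKO pools, against 1.61, 1.06 and 8.47 in WT pools. Ptch1 had 3.27, 1.38 and 7.53 in CKO pools, against 0.862, 1.49 and 7.47 in WT pools. In library 2 the ratio of Gli3 to Smo was 5.10, 3.83 and 5.53 in CKO pools against 1.17, 3.60 and 0.592 in WT pools, and that of Ptch1 to Smo was 6.92, 5.91 and 4.17 in CKO pools against 2.29, 3.92 and 1.98 in WT pools. Gli3 had 0.871, 0.814 and 0.803 reads for each Ptch1 read in CKO pools, against 0.837, 0.824 and 0.491 in WT pools, with overlap. Gli3 had 1.59, 3.94 and 1.43 reads for each Gli2 read in CKO pools, against 1.78, 1.49 and 1.80 in WT pools, also with overlap.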
